A study of Mus musculus with 5 samples.

Results

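The genes described here are 37 genes of protein folding and stress in the endoplasmic reticulum (ER), chosen by name from the 24319 genes of an expression table of mouse mammary luminal cells, and all 37 were found. They fall into 6 role groups, which are 11 chaperones and co-chaperones, 4 protein disulfide isomerases, 6 stress sensors and transcription factors, 7 genes of ER-associated degradation, 5 genes of the translocon and 4 targets of the transcription factor Atf4. Luminal cells line the inside of the ducts and alveoli of the breast, and in lactation they make milk. RNA-seq was available for 5 libraries of such cells, sorted by flow cytometry as live CD24 high, CD29 low cells, and called Lum1 to Lum5. Lum1, Lum2 and Lum3 are labelled wild type, and Lum4 and Lum5 are labelled *Brca1* knockout. All come from mammary tissue of mice whose strain is labelled Mixed. The mice whose mammary glands the study took for single-cell preparation were young adult females, virgin or in mid-pregnancy. The age and stage behind each library are not given in the sources used here. In the mouse model of the study, *Brca1* is deleted by a Cre recombinase under the MMTV promoter (*MMTV-Cre;Brca1 fl/fl*), which acts in mammary epithelium. The study describes its luminal cells as BRCA1-deficient whereas the labels name 3 of 5 libraries wild type, so each library is called by its label.

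The ER is where secreted and membrane proteins are folded. When unfolded proteins build up there, the sensors Ire1 (gene *Ern1*), Perk (gene *Eif2ak3*) and Atf6 start the unfolded protein response. Ire1 splices the mRNA of *Xbp1*, cleaved Atf6 enters the nucleus, and both factors raise chaperone genes, whereas Perk slows translation and favours Atf4, which raises genes of amino acid supply and of stress. The lactating mammary gland is a secretory tissue with a large load of milk proteins.

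Expression was given as FPKM, the fragments mapped to a gene per length of transcript and scaled to the size of the library, so levels of different genes can be compared. With no read totals in the table, the number of fragments was estimated from steps in the low values, at 6190000, 12900000 and 30400000 fragments for Lum1, Lum2 and Lum3 and at 6340000 and 21300000 for Lum4 and Lum5. The luminal keratins and adhesion genes *Krt8*, *Krt18*, *Krt19*, *Epcam* and *Cdh1* summed to 5810 to 9957 FPKM in every library. *Brca1* itself was at 1.30, 1.32 and 0.234 FPKM in Lum1, Lum2 and Lum3 and at 1.20 and 1.34 FPKM in Lum4 and Lum5, so its level did not separate the labels. Lum3 stood apart from the rest. Its 10 markers of mature luminal cells, such as *Prlr* and *Pgr*, summed to 728 FPKM against 63.7 and 68.6 in the other libraries labelled wild type and 35.2 and 45.7 in those labelled knockout. Its 7 milk genes summed to 28541 FPKM against 68704 to 91288 in the other 4 libraries. Results that rest on Lum3 are therefore given also without it.

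Some of the genes carry the ER stress element (ERSE), the DNA sequence through which Atf6, with the factor NF-Y, raises chaperone genes. Its letters are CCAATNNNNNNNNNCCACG, on either strand. The 7 stretches below are from promoters of chaperone and isomerase genes (RefSeq, GRCm38.p6, which is the mm10 build, written 5′ to 3′ on the strand of the gene). They are shown because these genes were lower in the libraries labelled knockout. Capitals mark the element, which in *Calr*, *Creld2* and the second copy of *Hsp90b1* lies on the opposite strand, and all copies lie before the transcription start.
Hspa5 (chr2:34772005-34772055, plus strand): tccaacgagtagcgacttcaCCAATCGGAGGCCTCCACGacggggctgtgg
Hsp90b1 (chr10:86705521-86705668, minus strand): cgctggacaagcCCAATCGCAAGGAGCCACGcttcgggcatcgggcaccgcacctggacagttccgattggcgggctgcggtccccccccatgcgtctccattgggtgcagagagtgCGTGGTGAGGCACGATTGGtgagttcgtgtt
Calr (chr8:84847063-84847105, minus strand): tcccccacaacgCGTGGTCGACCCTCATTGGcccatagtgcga
Canx (chr11:50325788-50325830, minus strand): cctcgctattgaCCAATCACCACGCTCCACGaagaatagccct
Dnajc3 (chr14:118937815-118937857, plus strand): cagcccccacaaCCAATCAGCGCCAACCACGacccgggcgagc
Creld2 (chr15:88819508-88819550, plus strand): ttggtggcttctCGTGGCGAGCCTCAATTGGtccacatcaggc
Pdia6 (chr12:17266479-17266521, plus strand): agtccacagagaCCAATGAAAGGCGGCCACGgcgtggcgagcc

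The element was found in 9 of the 32 genes that had a promoter window of 300 bases (250 before to 50 after the start), or 28.1%. Over the 27025 gene symbols with such a window it was found in 37, or 0.137%. The genes were chosen by name and the element is a known one of chaperone genes, so this share describes the list and is not a test. The other carriers were *Syvn1* and *Derl3*, and *Hsp90b1* had 2 copies. In *Hspa5* the element lay 65 to 47 bases before the start. *Manf*, *Sec61a1*, *Hyou1*, *Atf6* and *Derl1* had no window to search. The related element ERSE-II, ATTGGNCCACG, was in *Dnajb11* and *Herpud1*, or 6.25% of the 32 against 0.0444% of all symbols. The element UPRE (TGACGTGG), bound by spliced Xbp1, was in 0 of the 32 windows against 0.714% of all symbols.

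The element of the Atf4 branch, TGATGNAA, was in *Herpud1*, *Trib3*, *Asns* and *Chac1*, or 12.5% of the 32 against 4.51% of all symbols. Both stretches below are shown because *Asns* and *Chac1* are Atf4 targets that followed another course over the libraries than the chaperones. Capitals mark the element, which in *Chac1* lies on the opposite strand. No match of 1 element overlapped a match of another.
Asns (chr6:7693213-7693244, minus strand): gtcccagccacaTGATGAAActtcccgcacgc
Chac1 (chr2:119351037-119351068, plus strand): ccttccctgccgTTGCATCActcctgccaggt

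**Figure D1:**
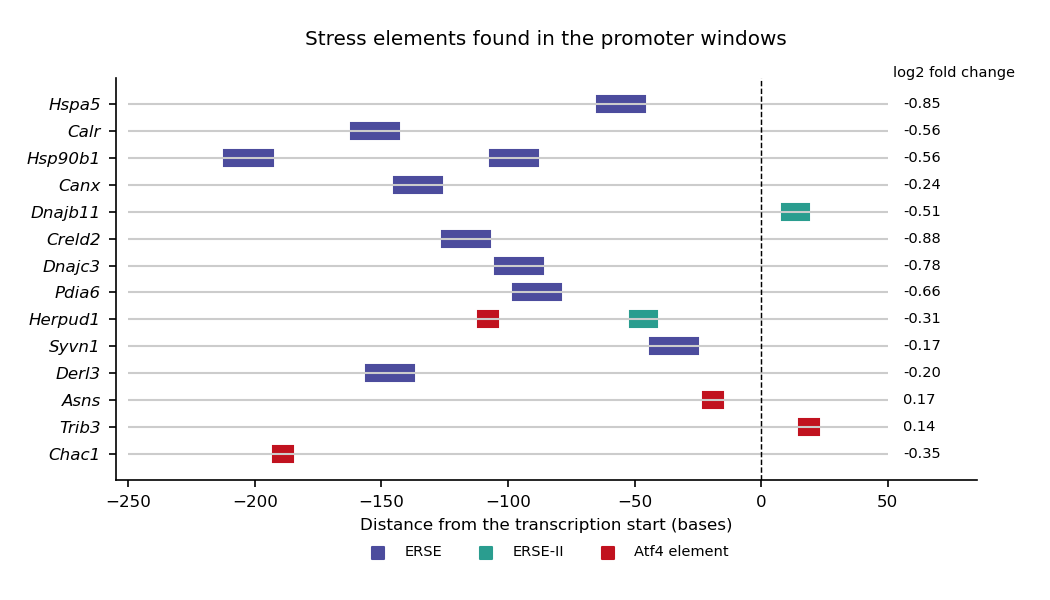
Positions of the stress elements in the promoter windows of 14 genes, with the distance from the transcription start in bases on the x axis and 1 gene per row. Boxes mark ERSE, ERSE-II and the Atf4 element, and the number at the right is the gene's log2 fold change (*Brca1* knockout minus wild type label), which lay between -0.88 and -0.17 for the 9 genes with ERSE.

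The genes were well expressed. All 37 reached 1 FPKM in every library, 14 were among the 1000 genes of highest mean level, and 9 had a mean above 100 FPKM. Together they took 0.550%, 0.640% and 0.618% of the FPKM of all genes in Lum1, Lum2 and Lum3 and 0.427% and 0.513% in Lum4 and Lum5. *Hspa5* was the highest, at a mean of 545 FPKM, followed by *Calr* at 338 and *Atf4* at 294, and the ranges of neighbours in this order overlapped. The range of *Atf4* did not overlap that of *P4hb*, next at 212 FPKM. At the low end stood *Derl3*, at a mean of 1.44 FPKM, below the range of *Derl2* (7.17) and *Chac1* (8.12), whose ranges overlapped each other.

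**Figure D2:**
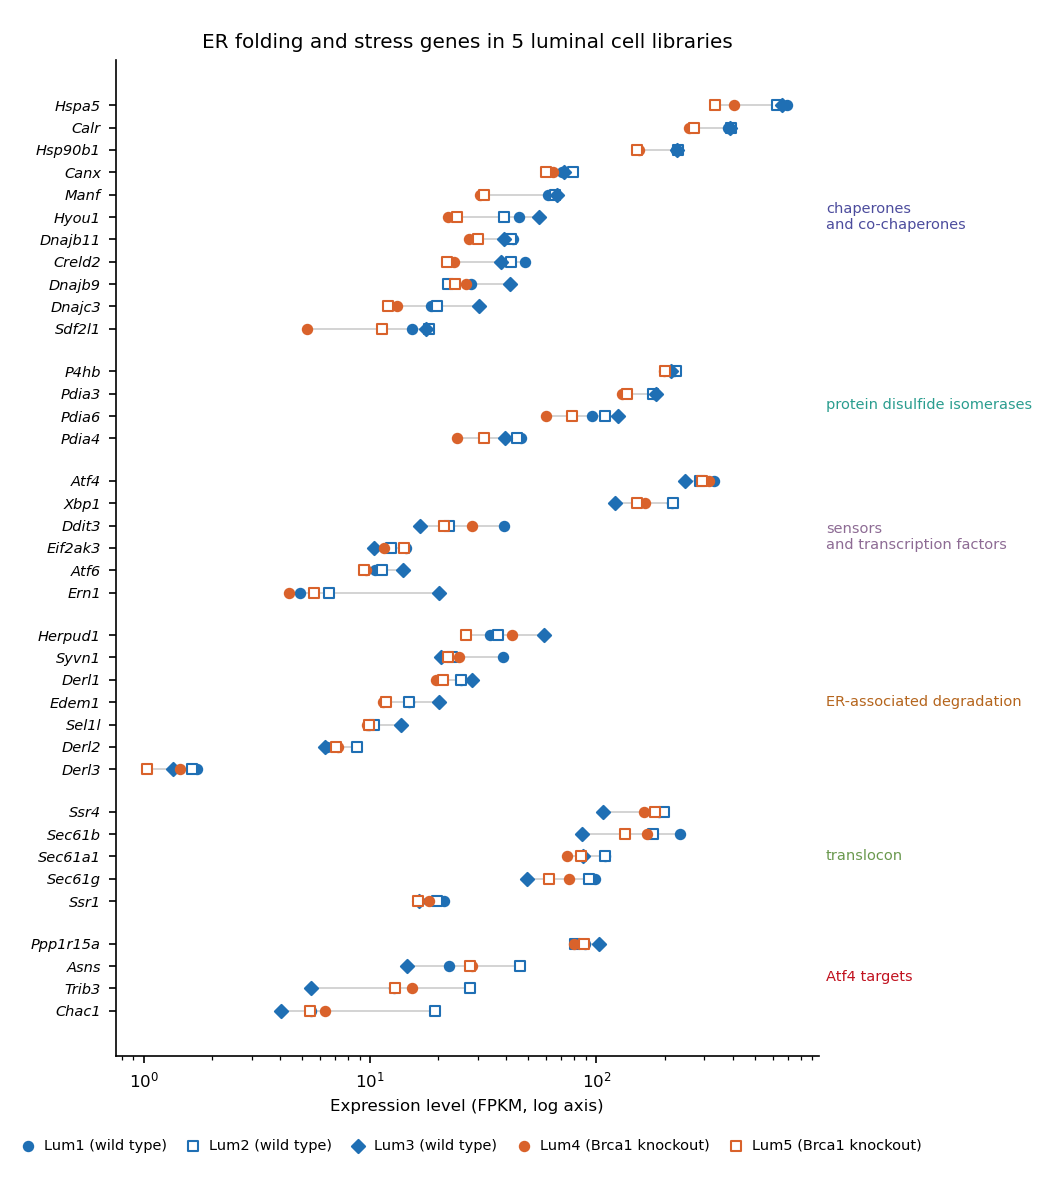
Level of each of the 37 genes in the 5 libraries, in FPKM on a log axis, with genes grouped by role and ordered by mean level, and a grey line over the range. Among chaperones and isomerases the orange points (*Brca1* knockout label) lie left of the blue points (wild type label) for all genes but *Dnajb9*, while in the lower groups the colours mix.

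The libraries labelled *Brca1* knockout were then compared with those labelled wild type. The ER chaperones and disulfide isomerases were lower in the knockout label, whereas most of the stress sensors, the translocon and the Atf4 targets overlapped between labels. For the translocon this overlap rested on Lum3. Without Lum3, 5 of the 5 translocon genes were lower without overlap, against 15.2% of all genes then tested. In 18 of the 37 genes both libraries labelled knockout lay below all 3 labelled wild type, against 5.77% of all 11481 genes tested. In 0 of the 37 did they lie above, against 17.5% of all genes tested. No gene passed the test (limma with Benjamini-Hochberg adjustment, adjusted p under 0.05), neither among the 37 nor among all genes tested (0%, with 105 lower and 267 higher at an unadjusted p under 0.05), and the lowest adjusted p of the 37 was 0.92. At an unadjusted limma p under 0.05, 12 of the 37 were lower in the knockout label against 0.915% of all genes tested, and 0 were higher against 2.33%. These 12 were all chaperones or isomerases. The median log2 fold change (knockout minus wild type label, on log2(FPKM + 1)) was -0.29 over the 37 genes and 0.11 over all genes tested, and without Lum3 it was -0.34 and 0.03. Nothing in the sources says that the libraries came from separate animals, so these p-values measure the spread between the libraries, which may be technical.

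**Figure D3:**
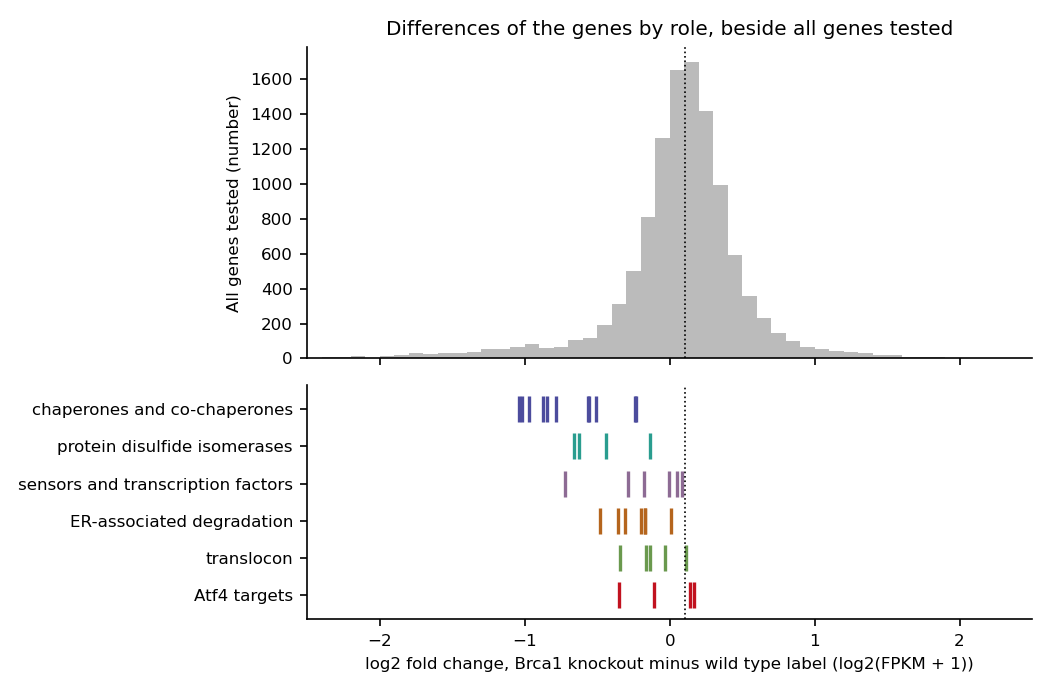
Number of genes tested per bin of log2 fold change (*Brca1* knockout minus wild type label) above, and 1 tick per gene for the 6 role groups below, on the same x axis, which leaves out 91 genes beyond 2.5 on either side. The dotted line marks the median of all genes tested at 0.11, and all ticks of the chaperones and isomerases lie to its left.

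Among the chaperones, 10 of 11 were lower in both libraries labelled knockout than in all 3 labelled wild type, and the median log2 fold change was -0.78 (-0.57 without Lum3). *Hspa5* encodes BiP, the main Hsp70 chaperone of the ER, which also holds the sensors inactive (ENSMUSG00000026864, chromosome 2 of mm10, 34771970 to 34777547). Its level was 695, 628 and 663 FPKM in Lum1, Lum2 and Lum3 and 406 and 333 FPKM in Lum4 and Lum5. The wild type label had a mean of 662 ± 33.7 FPKM (SD, n = 3) and the knockout label 369 ± 51.7 FPKM (SD, n = 2), or 1.79 times less. The log2 fold change was -0.85 with a standard error of 0.20 (limma, adjusted p = 0.92).

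*Hsp90b1* encodes Grp94, the Hsp90 of the ER (ENSMUSG00000020048, chromosome 10, 86690209 to 86705509). It varied little within each label, at 226, 229 and 228 FPKM in Lum1 to Lum3 and at 155 and 152 FPKM in Lum4 and Lum5. Its label means differed 1.48 times. The lectin chaperone *Calr* (calreticulin), which holds calcium and folds glycoproteins, was at 379, 395 and 388 FPKM in the wild type label and at 257 and 269 FPKM in the knockout label. Its membrane-bound relative *Canx* (calnexin) showed less of a gap, at 70.4, 79.0 and 71.6 FPKM against 64.1 and 60.02 FPKM. The log2 fold change was -0.56 for *Calr* and -0.24 for *Canx*, and the groups of both did not overlap.

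The largest differences were in co-chaperones and secreted helpers of moderate level. *Manf*, a secreted ER stress protein that binds BiP (ENSMUSG00000032575, chromosome 9, 106838312 to 106891979), had levels of 61.1, 65.5 and 66.9 FPKM in the wild type label and of 30.5 and 31.9 FPKM in the knockout label. They lay close together within each label and 2.07 times apart between them. Its log2 fold change of -1.02 (standard error 0.16) ranked first of the 37 genes by unadjusted p (limma, adjusted p = 0.92). *Sdf2l1*, a partner of BiP and its J proteins, was at 15.3, 18.2 and 17.6 FPKM against 5.25 and 11.2 FPKM, a log2 fold change of -1.04. Lum4 was the lowest there, with a level that corresponds to an estimated 36.9 fragments. *Hyou1*, the nucleotide exchange factor of BiP, was at 45.5, 39.0 and 55.8 FPKM against 22.2 and 24.1 FPKM. *Creld2*, an ER stress protein with disulfide isomerase activity, was at 48.4, 41.8 and 37.9 FPKM against 23.5 and 21.9 FPKM. For *Hyou1* and *Creld2* every library labelled knockout was below the lowest labelled wild type, with log2 fold changes of -0.97 and -0.88.

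The J proteins, which bring substrates to BiP, were not alike. *Dnajc3* (p58IPK) was at 18.5, 19.7 and 30.4 FPKM in Lum1 to Lum3 and at 13.1 and 12.01 FPKM in Lum4 and Lum5, and its log2 fold change was -0.78 with Lum3 and -0.57 without it. *Dnajb11* (ERdj3) was at 43.0, 41.9 and 39.0 FPKM against 27.5 and 30.0 FPKM. *Dnajb9* (ERdj4) was the exception among the chaperones, at 28.0, 22.1 and 41.6 FPKM against 26.4 and 23.7 FPKM. Its labels overlapped, with Lum2 the lowest and Lum3 the highest of all, and its log2 fold change of -0.23 became 0.0075 without Lum3.

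The disulfide isomerases, which form and shuffle the disulfide bonds of secreted proteins, had a median log2 fold change of -0.53 (-0.50 without Lum3), and the labels of 4 of 4 did not overlap. *Pdia6* (P5) was at 95.6, 109 and 124 FPKM in the wild type label and at 59.9 and 78.4 FPKM in the knockout label, a log2 fold change of -0.66 (standard error 0.22). *Pdia4* (ERp72) was at 46.6, 44.8 and 39.6 FPKM against 24.2 and 32.0 FPKM, a log2 fold change of -0.63. *Pdia3* (ERp57), the partner of calnexin and calreticulin, was at 180, 178 and 184 FPKM against 130 and 136 FPKM, a log2 fold change of -0.44. In these 3 genes Lum4 was the lowest library. *P4hb*, the most abundant disulfide isomerase and also a subunit of collagen prolyl hydroxylase, was the most even of the 37 genes, at 221, 225 and 213 FPKM against 199 and 200 FPKM. Its coefficient of variation over the 5 libraries was 5.60%, and its log2 fold change of -0.14 was smaller than its standard error of 0.17.

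**Figure D4:**
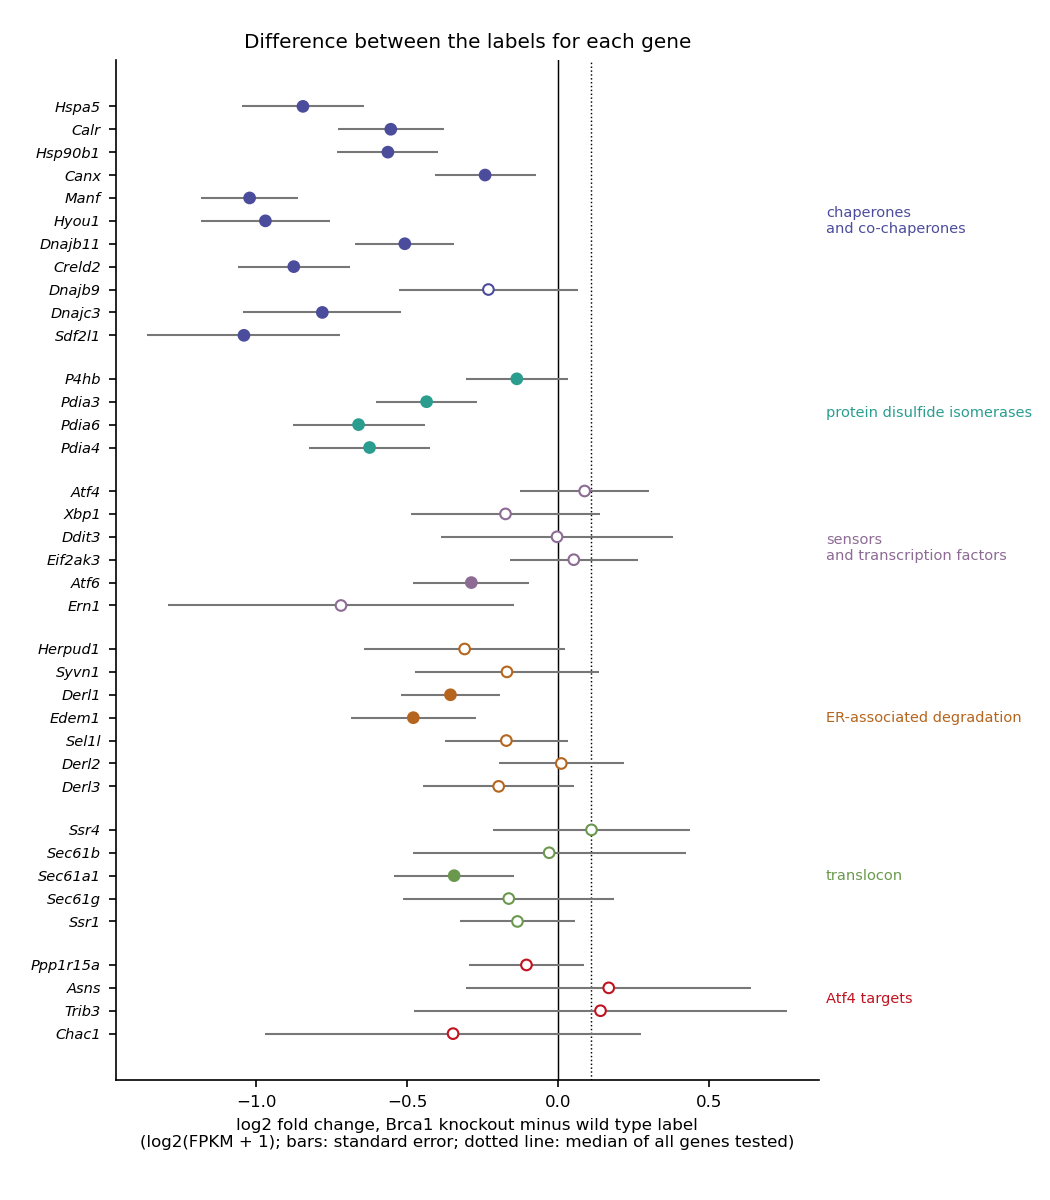
log2 fold change of each of the 37 genes (*Brca1* knockout minus wild type label, on log2(FPKM + 1)), with the limma standard error as a bar and genes grouped by role. Filled points mark the 18 genes whose labels did not overlap, the dotted line marks the median of all genes tested at 0.11, and the values run from -1.04 for *Sdf2l1* to 0.17 for *Asns*.

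Chaperones and isomerases together were 15 genes. All 15 had a negative log2 fold change, 14 of 15 did not overlap and 12 of 15 had an unadjusted limma p under 0.05. The remaining 22 genes had 4 without overlap, all lower in the knockout label, and 0 with an unadjusted limma p under 0.05, and their median log2 fold change was -0.17. Without Lum3, 10 of the 22 and 14 of the 15 were lower without overlap, against 15.2% of all genes then tested. Ratios of FPKM within a library do not depend on how it was scaled. The ratio of the median FPKM of the 15 to that of the other 22 was 2.57, 2.71 and 3.31 in Lum1, Lum2 and Lum3 and 1.38 and 1.52 in Lum4 and Lum5. The ratio of *Hspa5* to *P4hb* was 3.14, 2.78 and 3.11 in the former and 2.04 and 1.66 in the latter. The ratio of *Hspa5* to *Atf4* was 2.09, 2.19 and 2.70 against 1.29 and 1.14. In each of these 3 measures the 2 libraries labelled knockout lay below the other 3. The ratios restate the levels of the same genes and are not a separate result. The median log2(FPKM + 1) of the chaperones minus that of the translocon was -1.15, -1.37 and -0.61 in Lum1, Lum2 and Lum3. It was -1.42 and -1.48 in Lum4 and Lum5, so Lum2 and Lum4 lay close together there.

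Of the 6 sensors and transcription factors, 1 was without overlap, and their median log2 fold change was -0.09 (-0.17 without Lum3). *Atf6*, the sensor that is itself a transcription factor, was at 10.5, 11.3 and 14.0 FPKM in the wild type label and at 9.57 and 9.45 FPKM in the knockout label, and was the gene without overlap (log2 fold change -0.29, standard error 0.19, and -0.18 without Lum3). *Eif2ak3* was at 14.4, 12.4 and 10.4 FPKM against 11.6 and 14.1 FPKM, so both labels covered about the same range. *Ern1* was at 4.93, 6.61 and 20.2 FPKM against 4.37 and 5.66 FPKM, so Lum3 alone was high. Its log2 fold change of -0.72 became -0.17 without Lum3.

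Among the transcription factors of the response, *Atf4* was the most abundant. It was at 332, 286 and 245 FPKM in the wild type label and at 314 and 293 FPKM in the knockout label. *Xbp1* was at 215, 217 and 121 FPKM against 164 and 151 FPKM, so Lum3 was the lowest library and the other 2 labelled wild type were the highest. The log2 fold change of *Xbp1* was -0.18 with Lum3 and -0.45 without it. A gene-level FPKM does not separate spliced from unspliced *Xbp1* mRNA. *Ddit3*, which encodes the stress factor CHOP, was at 38.9, 22.4 and 16.7 FPKM against 28.1 and 21.1 FPKM, with overlapping labels (log2 fold change -0.0046, standard error 0.38, and -0.27 without Lum3). The name *Ddit3* is shared by overlapping annotated loci, so its value is uncertain.

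ER-associated degradation moves misfolded proteins out of the ER to the proteasome. Of its 7 genes, *Edem1* and *Derl1* did not overlap between labels, and the median log2 fold change was -0.20 (-0.26 without Lum3). *Edem1*, which selects misfolded glycoproteins, was at 14.8, 14.9 and 20.2 FPKM in the wild type label and at 11.4 and 11.7 FPKM in the knockout label. *Derl1*, of the channel through the membrane, was at 25.2, 25.3 and 28.1 FPKM against 19.5 and 21.0 FPKM. Their log2 fold changes were -0.48 and -0.36. *Herpud1*, a stress-induced membrane protein of this pathway, was the highest of the group on average, at 33.8, 36.7 and 58.8 FPKM against 42.2 and 26.6 FPKM. *Syvn1*, the ubiquitin ligase Hrd1, was at 38.7, 23.1 and 20.7 FPKM against 24.7 and 22.2 FPKM. *Sel1l*, the partner of Hrd1, was at 9.90, 10.4 and 13.7 FPKM against 9.73 and 9.94 FPKM. Each of these 3 genes had its highest level in a single library labelled wild type, Lum3 for *Herpud1* and *Sel1l* and Lum1 for *Syvn1*. *Derl2* and *Derl3*, relatives of *Derl1*, were low throughout. *Derl2* was at 6.43, 8.75 and 6.35 FPKM against 7.23 and 7.08 FPKM, and *Derl3* at 1.71, 1.63 and 1.35 FPKM against 1.44 and 1.04 FPKM, the latter from an estimated 12.1 to 54.0 fragments per library.

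The translocon takes new proteins into the ER, with *Sec61a1*, *Sec61b* and *Sec61g* encoding the channel and *Ssr1* and *Ssr4* a complex beside it. *Sec61a1*, the pore subunit, was at 109, 110 and 87.2 FPKM in the wild type label and at 74.0 and 85.3 FPKM in the knockout label. This was the sole translocon gene of the 5 without overlap, and the gap between 87.2 and 85.3 FPKM was small. *Sec61b* was at 234, 178 and 86.0 FPKM against 167 and 134 FPKM. *Ssr4* was at 189, 199 and 106 FPKM against 162 and 181 FPKM. In *Sec61b*, *Sec61g* and *Ssr4* Lum3 was the lowest of the 5 libraries, and Lum1 and Lum2 were above both libraries labelled knockout. *Sec61g* ranged from 49.5 to 98.6 FPKM and *Ssr1* from 16.3 to 21.1 FPKM. The median log2 fold change of the translocon was -0.14 with Lum3 and -0.44 without it.

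The Atf4 targets followed another course. *Asns*, which makes asparagine, was at 22.4, 45.9 and 14.6 FPKM in Lum1, Lum2 and Lum3 and at 28.2 and 27.7 FPKM in Lum4 and Lum5. *Trib3*, a pseudokinase that restrains Atf4 and CHOP signalling, was at 12.8, 27.5 and 5.49 FPKM against 15.3 and 12.9 FPKM. *Chac1*, which breaks down glutathione, was at 5.47, 19.4 and 4.02 FPKM against 6.30 and 5.42 FPKM. All 3 were highest in Lum2 and lowest in Lum3, both labelled wild type, and the knockout label lay between them. *Ppp1r15a* (Gadd34), which brings the phosphatase that ends the Perk signal, was at 88.9, 80.1 and 102 FPKM against 79.3 and 87.9 FPKM and did not share this course. The median log2 fold change of the 4 genes was 0.02 (-0.30 without Lum3), and 0 of 4 were without overlap.

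**Figure D5:**
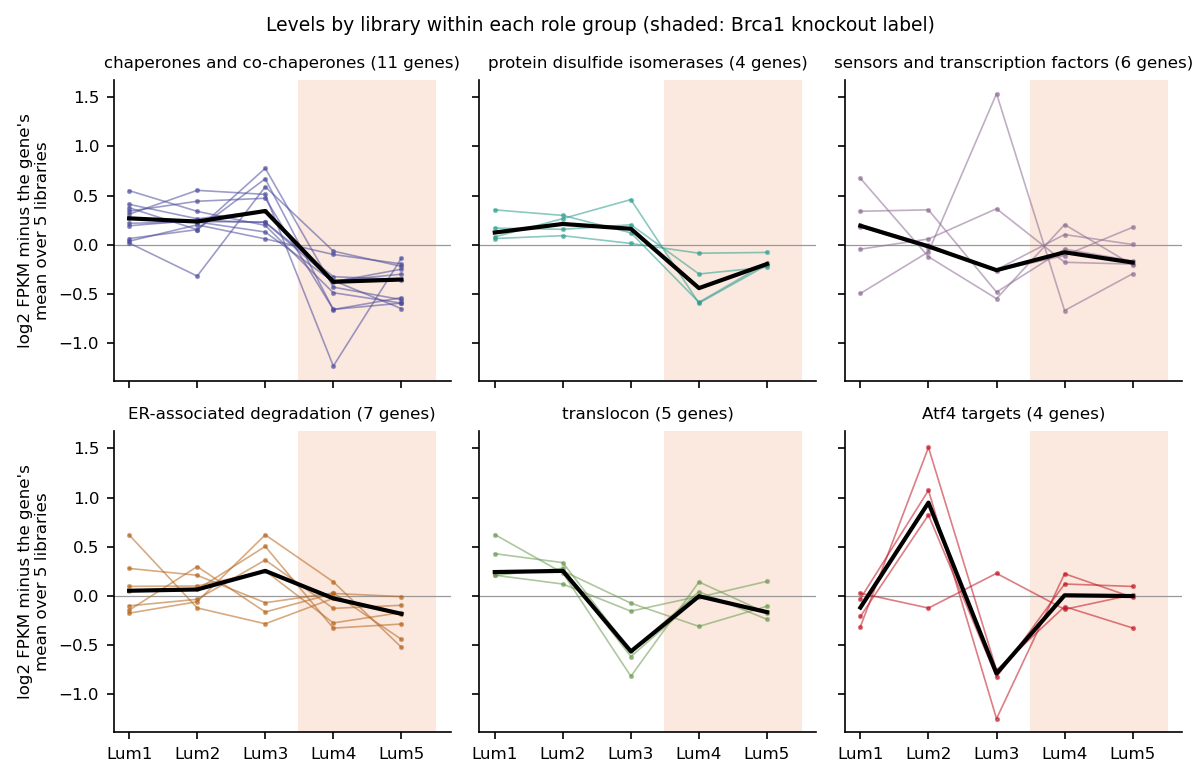
log2 FPKM of each gene minus that gene's mean over the 5 libraries (y axis), by library (x axis), with 1 panel per role group, 1 thin line per gene and a black line for the median of the group. The chaperones and isomerases step down from Lum3 to the shaded libraries with the *Brca1* knockout label, whereas *Asns*, *Trib3* and *Chac1* peak in Lum2 and are lowest in Lum3.

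Where levels differed between the 3 libraries labelled wild type, Lum3 was often at an end, as it was over all genes tested. It was the highest library for 13 of the 37 genes and the lowest for 12, against 2121 and 5953 of the 11481 genes tested. None of the 15 chaperones and isomerases was lowest there (0 of 15). All 37 genes had their highest level in a library labelled wild type, against 58.6% of all genes tested. In 24 of the 37 the lowest level was in a library labelled knockout, against 19.1% of all genes tested.

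The promoter elements can be set beside these values as a description. Of the 9 genes with ERSE, 7 did not overlap and were lower in the knockout label, against 5.77% of all genes tested. The median log2 fold change of the 9 was -0.56. Of the 23 genes searched without ERSE, 6 were lower without overlap and the median was -0.16. The 7 were all chaperones or isomerases, and the exceptions with ERSE, *Syvn1* and *Derl3*, were degradation genes. The chaperones and isomerases *Dnajb11*, *Sdf2l1*, *Pdia3*, *Pdia4* and *P4hb* had no ERSE and were also lower without overlap, whereas *Dnajb9* overlapped. Element and role were not tested apart. Among the other genes tested, 4 had ERSE (*Acacb*, *Alg12*, *Hnrnpa3* and *Pan2*), of which 0 were lower without overlap. The 4 genes with the Atf4 element had a median log2 fold change of -0.09, and 0 of 4 were without overlap.

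Another 73 genes of ER folding, degradation, translocation, glycosylation and the Atf4 branch were followed as a list, of which 71 were tested. None passed the test, and at an unadjusted limma p under 0.05 there were 2 lower in the knockout label and 0 higher. Of the 71 tested, 18 were lower without overlap and 6 were higher (against 5.77% and 17.5% of all genes tested), and the median log2 fold change was -0.09 (-0.17 without Lum3). Without Lum3, 29 were lower without overlap and 6 were higher, against 15.2% and 23.9% of all genes then tested. In its 16 other chaperones and folding enzymes, 4 were lower without overlap and the median was -0.06 (-0.17 without Lum3). In its 13 other degradation genes, 6 were lower and 2 were higher, with a median of -0.17 (-0.15 without Lum3). In its 13 other Atf4 targets that were tested, 0 were lower and 2 were higher, with a median of 0.34 that became -0.0063 without Lum3.

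The lowest log2 fold changes of this list, among those averaging 5 FPKM or more, were those of *Nupr1*, *Vimp* and *Txndc5*. *Nupr1*, a stress-induced chromatin protein, was at 55.02, 58.8 and 238 FPKM in the wild type label and at 33.4 and 57.5 FPKM in the knockout label, so its log2 fold change of -1.05 became -0.37 without Lum3. *Vimp*, a selenoprotein of the degradation complex, was at 46.7, 46.7 and 37.8 FPKM against 28.4 and 32.2 FPKM. *Txndc5*, a disulfide isomerase, was at 43.1, 40.5 and 49.3 FPKM against 31.2 and 32.7 FPKM. The labels of *Vimp* and *Txndc5* did not overlap. The highest were *Psat1* and *Phgdh*, both of serine synthesis, and *Aldh18a1*, of proline synthesis. *Psat1* was at 28.5, 68.5 and 8.63 FPKM against 39.4 and 63.6 FPKM, and *Phgdh* at 95.1, 93.6 and 12.8 FPKM against 79.8 and 104 FPKM. *Aldh18a1* was at 20.8, 27.6 and 7.83 FPKM against 18.8 and 33.5 FPKM. In all 3 of these genes Lum3 was far below the others and the labels overlapped. Their log2 fold changes of 0.92, 0.88 and 0.57 became 0.17, -0.05 and 0.07 without Lum3.

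Markers of other cells and states were set beside these values, where 5.77% of all genes tested were lower and 17.5% higher without overlap. The 10 mature luminal markers were lower without overlap in the knockout label for 6 of 10. Their sum was 63.7 to 728 FPKM in the wild type label and 35.2 to 45.7 FPKM in the knockout label. The 5 luminal progenitor markers summed to 528 to 647 FPKM against 420 to 467 FPKM, with 1 lower (*Aldh1a3*) and 1 higher (*Kit*) without overlap. The 7 basal markers summed to 13.5 to 139 FPKM against 44.1 to 66.6 FPKM, with 2 of 7 lower without overlap. The 10 proliferation genes were higher without overlap for 8 of 10, with sums of 58.8 to 169 FPKM against 191 to 237 FPKM. Plasma cells, which secrete antibodies, are rich in ER chaperones. The 7 plasma and B cell markers summed to 1.81, 16.6 and 135 FPKM in Lum1, Lum2 and Lum3 and to 1.66 and 0.793 FPKM in Lum4 and Lum5, and 4 of 7 were lower without overlap, with *Tnfrsf17* at 0 in Lum2, Lum4 and Lum5. The 7 other leukocyte markers summed to 6.81 to 266 FPKM against 4.62 to 8.05 FPKM, with 1 of 7 lower without overlap. The 6 fibroblast markers summed to 2.997 to 109 FPKM against 3.86 to 12.6 FPKM, with 0 of 6 without overlap. The 7 milk genes summed to 28541 to 91288 FPKM against 68704 to 74094 FPKM, with 0 of 7 without overlap. The heat shock genes of the cytosol, which answer to another stress, summed to 3769 to 6530 FPKM against 3071 to 4742 FPKM, with 2 of 7 lower without overlap (*Hsp90aa1* and *Hspb1*). All 7 had a negative log2 fold change, with a median of -0.43 (-0.65 without Lum3). The median was -0.78 (-0.57 without Lum3) for the 11 ER chaperones and -0.29 (-0.34 without Lum3) for the 37 ER genes. The part of these differences in the levels of the ER genes was not tested. In bulk libraries, fewer cells of a type and less RNA per cell cannot be told apart.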

How the data were processed

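Bulk RNA-seq of 5 libraries of sorted mouse mammary luminal cells was analysed, 3 labelled wild type and 2 labelled Brca1 knockout. The deposited values are FPKM, which the authors made from reads aligned to mm10 with TopHat and quantified with Cufflinks 2.2.1; the submitters' processing notes also name Trimmomatic 0.35 and TopHat2 2.0.13. The labels' extraction text speaks of tumors, whereas the study's methods describe sorted luminal cells. The gene annotation is not given in the sources used here. Of 24346 rows, 27 whose names had become dates were left out, which leaves 24319 genes. The table has no counts, so no count model was run. FPKM of low genes times transcript length (873 genes with a single transcript in GENCODE M21) lay within 0.15 of a whole multiple of a step in 52.0% to 58.8% of cases. That step was the best fit of many tried, which itself raises this share. It gave the estimated depths, which are approximate, and the numbers of fragments cover counting error only.

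Values were analysed as log2(FPKM + 1), a scale on which fold changes of low genes are understated. The 11481 genes averaging 1 FPKM or more were compared between labels in R 4.3.3 with limma 3.58.1 (lmFit, then eBayes with its trend option), with Benjamini-Hochberg adjustment over all of them. The fit was tried on simulated data with the same spread for every gene and no library apart from the rest. That trial does not show how the fit performs on these libraries. An exact permutation test of 3 libraries against 2 cannot give a p below 0.2, so none was used for single values. Labels were said not to overlap when both libraries of 1 label lay above, or below, all 3 of the other. Promoters were those of RefSeq (GRCm38.p6). Coordinates of genes are those of GENCODE M21. ER retention signals of the proteins were not analysed here.

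The genes and lists were chosen with earlier results of these data known. Values in every library are given for the 3 highest genes of each role group, up to 10 genes of largest difference without overlap, genes with a library far from the others, and the 3 lowest genes, and others were added where a group is small. Of the wider pathway list, the 3 highest and 3 lowest log2 fold changes among genes averaging 5 FPKM or more are named. The alternatives were a pseudocount of 0.1, no filter, median-of-ratios and quantile scaling, limma without a trend or with arrayWeights, and each library left out. Calculations used Python 3.11.15, numpy 2.4.6 and pandas 2.3.3.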

Additional observations from a re-analysis of the deposited data

Results flagged for a closer look

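With the 5 libraries taken as 1 group, as the study took its luminal cells, 4 of the 37 genes (10.8%) had a library farther from the others than Dixon's 95% limit of 0.71. Chance flags about 5% of genes, and 13% of all genes tested were flagged, 10.6% by Lum3. *Ern1* was at 20.2 FPKM in Lum3 whereas the others lay from 4.37 to 6.61 FPKM. *Sel1l* was at 13.7 FPKM in Lum3 and between 9.73 and 10.4 FPKM elsewhere. *Syvn1* was at 38.7 FPKM in Lum1 and between 20.7 and 24.7 FPKM elsewhere. *Chac1* was at 19.4 FPKM in Lum2 and between 4.02 and 6.30 FPKM elsewhere. All 4 were high in a library labelled wild type, and their source was not tested.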

How the results depend on the processing

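Under 11 alternatives, 23 of the 37 genes kept the sign of their log2 fold change and 14 changed it under at least 1, among chaperones and isomerases only *Dnajb9*. The 15 chaperones and isomerases had 14 without overlap, 13 to 15 over the alternatives that can change this count, and the 37 genes had 18 against 19 to 24, while the share of all genes lower without overlap was 5.77% against 8.07% to 15.2% (15.2% without Lum3, where the 24 arose). No gene of the 37 was called under any setting, and their lowest adjusted p (limma) was 0.092 with arrayWeights. The weights were 0.505, 5.59 and 0.148 for Lum1, Lum2 and Lum3 and 1.55 each for Lum4 and Lum5. Lum2 thus carried most of the weight in the wild type label. Those weights called 1 gene of all tested. With them, 19 of the 37 were lower at an unadjusted limma p under 0.05, against 8.86% of all genes tested. Without weights, 12 of the 37 were, against 0.915%. The weights moved the median of the 37 to -0.36. Median-of-ratios scaling moved it to -0.39. Leaving out 1 library at a time gave 0 to 14 genes called over all genes (14 without Lum4), a median of -0.34 (without Lum3) to -0.20 (without Lum5), and 4 (without Lum4) to 16 (without Lum3) of the 37 at an unadjusted p under 0.05. It gave 4 to 12 of the 15 chaperones and isomerases at that p (5 without Lum2, 6 without Lum5, 8 without Lum1), and 0 to 3 of the 37 higher without overlap (3 without Lum2). Where 1 library of a label is left, it is assumed to vary like the others. Of all genes at an unadjusted p under 0.05, 28.2% were lower in the knockout label, 41.9% after median-of-ratios scaling and 40.1% after quantile normalization, and of genes without overlap 24.8%, 42.9% and 38.6%. The causes were not tested. No paired analysis was possible because the labels share no replicate numbers. Depth limits *Derl3*, *Sdf2l1* and *Chac1*, with the fewest estimated fragments at 12.1, 36.9 and 55.4.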
